A study of Mus musculus with 12 samples.

Results

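The genes described here are 9 that are read as marks of T and B lymphocytes, among them Pdcd1, which encodes the inhibitory receptor PD-1. They were picked by gene name, and all their probes on the array were used, 10 probes of 9 genes among the 30111 gene names printed there. Ovaries came from 12 female C57BL/6J mice of 2 months, with 4 mice in each of 3 diet groups. The control mice had a normal diet, the early-life mice had a VD-deficient diet (VD is vitamin D) during early life only, and the peripubertal mice had it during the peripubertal stage only. All mice were of the same inbred strain and carried no engineered allele that the labels name. The design calls the 4 mice of a group biological replicates, and each sample is minced whole ovary, so every value is a mixture of all ovarian cells. A sample's name gives its group and number: C1 to C4 are control ovaries, E1 to E4 early-life ovaries, P1 to P4 peripubertal ovaries.

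T lymphocytes recognise antigen through a receptor whose signal is carried by the CD3 chains, encoded by Cd3d, Cd3e and Cd3g, and by the kinase Lck. B lymphocytes use an antibody-like receptor that signals through Cd79a and Cd79b, and they display the membrane protein encoded by Ms4a1 (CD20). Ptprc encodes CD45, a phosphatase on the surface of nearly all white blood cells, macrophages included. PD-1 restrains T cells after activation when it meets its ligands, encoded by Cd274 (PD-L1) and Pdcd1lg2 (PD-L2). In the ovary, macrophages and lymphocytes are resident, and their numbers are known to vary with the cycle and with regression of the corpus luteum.

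The probes are shown because they fix which part of each transcript was read. Each is 60 bases long, and positions are in mouse build mm9, as the array files give them. The 3 below are whole probes. The Ptprc probe (chr1:139961083-139961142, minus strand) closes an open reading frame with a TAG, in capitals. The Cd3d probe (chr9:44794171-44794402, plus strand) and 1 of the Cd79a probes, A_66_P120987 (chr7:25684357-25684614, plus strand), each match the genome in separate blocks, so they span an intron.
Ptprc: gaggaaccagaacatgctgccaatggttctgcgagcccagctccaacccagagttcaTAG
Cd3d: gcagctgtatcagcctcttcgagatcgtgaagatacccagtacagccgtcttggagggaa
Cd79a (A_66_P120987): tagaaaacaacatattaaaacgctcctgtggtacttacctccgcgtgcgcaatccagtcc

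Of the other probes, stretches of 30 bases are shown for Pdcd1, on which the main difference rests, and for the 3 members that hold the polyadenylation signal AATAAA, in capitals. That motif, searched on the strand of the probe only, is in 12.6% of all 39409 probes. These probes lie at chr1:95935064-95935123 (Pdcd1, minus strand), chr9:44806828-44806887 (Cd3e, minus), chr4:129225614-129225673 (Lck, minus) and chr7:25686823-25686882 (Cd79a probe A_55_P2137496, plus).
Pdcd1: aaggaaagggggatataaccttgacgcaaa
Cd3e: taatgcaaaaggcAATAAAgtgtattggct
Lck: tgcctagcacacaccaggagctcAATAAAa
Cd79a (A_55_P2137496): cacttaagtgatAATAAAtccttcccaaag

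The last 3 probes are those of Cd3g (chr9:44777868-44777927, minus strand), Cd79b (chr11:106172780-106172839, minus) and Ms4a1 (chr19:11325367-11325426, minus). The 3 CD3 genes are neighbours, with their probes inside 29 kb of chromosome 9. No gene annotation of build mm9 was used, so exons and untranslated regions are not named.

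RNA of each sample was labelled with Cy3 (odd numbers) or Cy5 (even numbers), and 2 samples of 1 group shared each of the 6 arrays. One slide carried all control and early-life arrays, and the other slide carried all peripubertal arrays. In any comparison with the peripubertal group, diet and slide therefore cannot be told apart. Per channel, the median signal was 147 to 331 intensity units and exceeded background by a factor of 6.85 to 9.48, with 58.3% to 64.6% of the probes well above it. Precision is limited by how few arrays there are. Values below are log2 normalized intensities. A probe's level is not set against that of another probe, except as untested differences between members within single samples. Differences are log2 differences with the standard error (SE) and the Benjamini-Hochberg adjusted p of 1 limma model over all 24191 probes tested.

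The group names are those of the scanner files. The deposited value table names the control and early-life arrays the other way round: each of its 8 columns for these groups matched a channel of the opposite group with a correlation of 0.9998 across probes. Which naming is right is not settled, so any difference between early-life and control ovaries may have the opposite sign. With the names exchanged, what is given below for early life against peripubertal mice holds for control against peripubertal mice.

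The member genes were well above background in most samples, which is the scanner software's own call of a spot against its surroundings. Of the 10 probes, 7 passed it in all 12 samples: those of Ptprc, Cd3d, Cd3e, Lck, Pdcd1, Cd79b and Cd79a probe A_55_P2137496. The Ms4a1 probe passed in 11 samples, all but C3. The Cd3g probe passed in 1 sample, C3, and the second Cd79a probe in 2, E1 and E2. These last 2 probes fell short of the 4 samples required for testing, and 8 probes were tested. No member spot was saturated or set aside as an outlier.

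Several other genes that define the same lymphocytes were not well above background. Cd247, the zeta chain of the T cell receptor complex, and Cd8a and Cd8b1, the chains of CD8, were well above background in 0 of 12 samples. Cd4, the co-receptor of helper T cells, was detected in 12 of 12. Among B cell genes, the transcription factor Pax5 and the kinase Blk were detected in 0 of 12. The array thus detected some but not all genes of each lineage, and the members are called by gene name rather than as a cell type. In whole tissue, fewer cells of a type and less RNA per cell cannot be told apart.

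**Figure D1:**
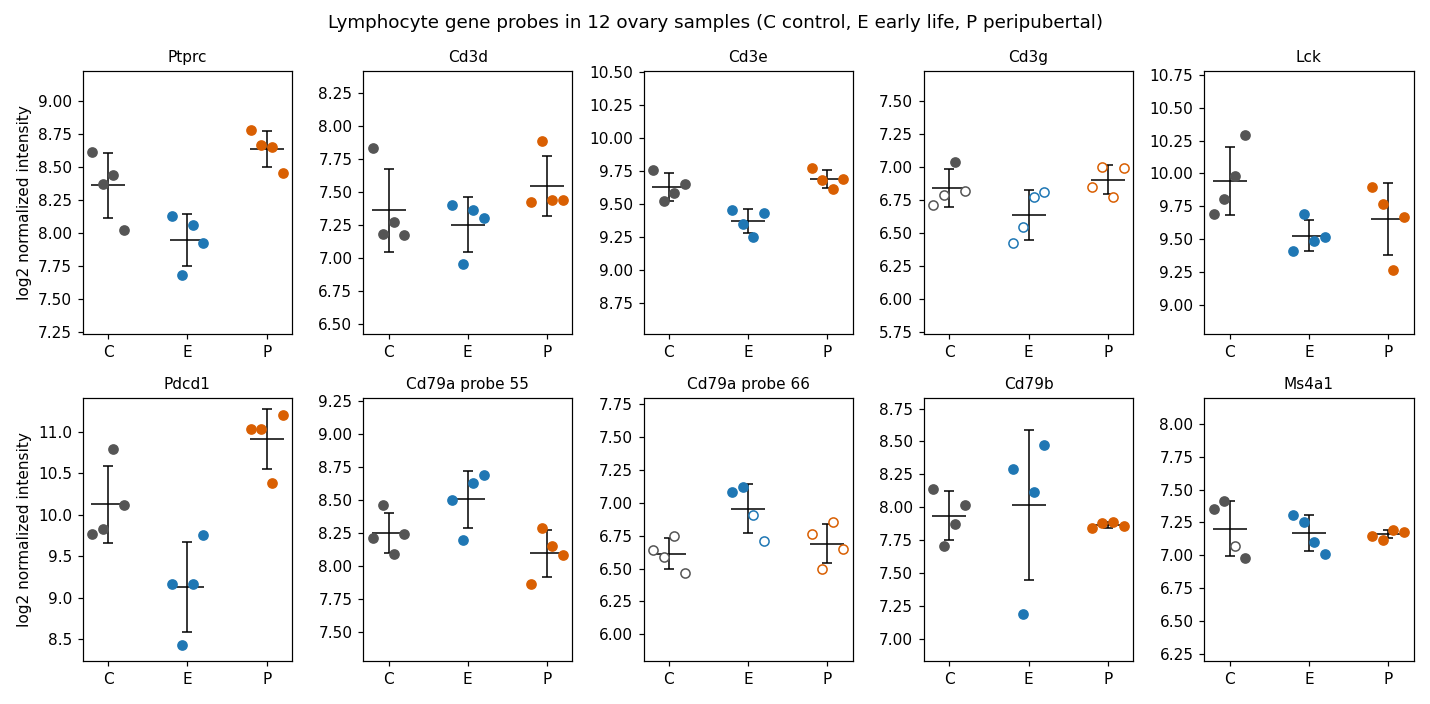
Log2 normalized intensity of the 10 probes in each of the 12 samples (C control, E early life, P peripubertal), with the mean and SD of 4 samples per group; open circles are values not well above background, and each panel has its own axis. Pdcd1 lay between 10.38 and 11.21 in the peripubertal samples and between 8.43 and 9.76 in the early-life samples.

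PD-1 gave the largest difference among the members. Pdcd1 measured 9.16, 8.43, 9.16 and 9.76 in E1 to E4 and 11.04, 11.03, 10.38 and 11.21 in P1 to P4. All early-life samples lay under all peripubertal samples. The control samples lay between, at 9.77, 9.83, 10.79 and 10.12 in C1 to C4, and C3 was above the lowest peripubertal sample, P3. The group means were 9.13 ± 0.54 (SD, n = 4) in early-life, 10.13 ± 0.47 (SD, n = 4) in control and 10.91 ± 0.37 (SD, n = 4) in peripubertal ovaries.

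Pdcd1 was 3.46-fold lower in early-life than in peripubertal ovaries, a log2 difference of -1.79 ± 0.38 (SE; limma, adjusted p = 0.045; 95% interval -2.62 to -0.96). Against control the early-life difference was -1.0 ± 0.38 (SE; limma, adjusted p = 0.32). The early-life samples were all under the control samples, by a margin as small as 9.76 in E4 against 9.77 in C1. Fitted within the slide that these groups shared, it was again -1.0 (limma, adjusted p = 0.297). The peripubertal difference from control was 0.79 ± 0.38 (SE; limma, adjusted p = 0.462). The order of the means was thus peripubertal, control, early life, and neither neighbouring pair passed the test.

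The Pdcd1 call is close to the threshold. It ended when any 1 of C1, C2, C3, E1, E3, P1, P2 or P4 was left out, with an adjusted p of up to 0.13, while the difference stayed between -2.0 and -1.54. It also ended, at adjusted p = 0.0602, when no filter on dim probes was used.

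Ptprc was the other member that passed. It measured 8.13, 7.68, 8.06 and 7.92 in E1 to E4 and 8.78, 8.67, 8.65 and 8.45 in P1 to P4. The groups did not overlap. The control samples were at 8.61, 8.37, 8.44 and 8.02, reaching into both other groups, with C4 the lowest.

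Ptprc was 1.61-fold lower in early-life than in peripubertal ovaries (log2 difference -0.69 ± 0.12, SE; limma, adjusted p = 0.0325; 95% interval -0.95 to -0.43). Its early-life difference from control was -0.42 ± 0.12 (SE; limma, adjusted p = 0.248), and its peripubertal difference from control was 0.27 ± 0.12 (SE; limma, adjusted p = 0.406). The call ended without C3, E1, E3, P1, P2 or P4 (adjusted p up to 0.107), with differences of -0.73 to -0.63 over all samples left out in turn.

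Set against all probes, the members' calls read as follows. In early life against peripubertal, 2 of 8 tested member probes were lower and 0 higher, where 1.65% of all probes tested were called lower. At an unadjusted p under 0.05, 3 were lower (14.5% of all probes) and 1 was higher (8.75% of all probes). In early life against control, 0 of 8 were called (0.0413% of all probes in either direction), and 4 were lower at an unadjusted p under 0.05 (8.94% of all probes). In peripubertal against control, 0 of 8 were called (0.273% of all probes), and 1 was higher at an unadjusted p under 0.05 (6.42% of all probes).

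The median member difference was -0.21 in early life against peripubertal, where the median of all probes was -0.03. It was -0.18 against -0.023 for early life minus control, and 0.01 against 0.007 for peripubertal minus control. The groups of 4 did not overlap, with early life lower, for 4 of 8 members against peripubertal (13.8% of all probes) and for 2 of 8 against control (9.12% of all probes). They overlapped for all 8 in peripubertal against control, where 11.8% of all probes were apart.

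**Figure D2:**
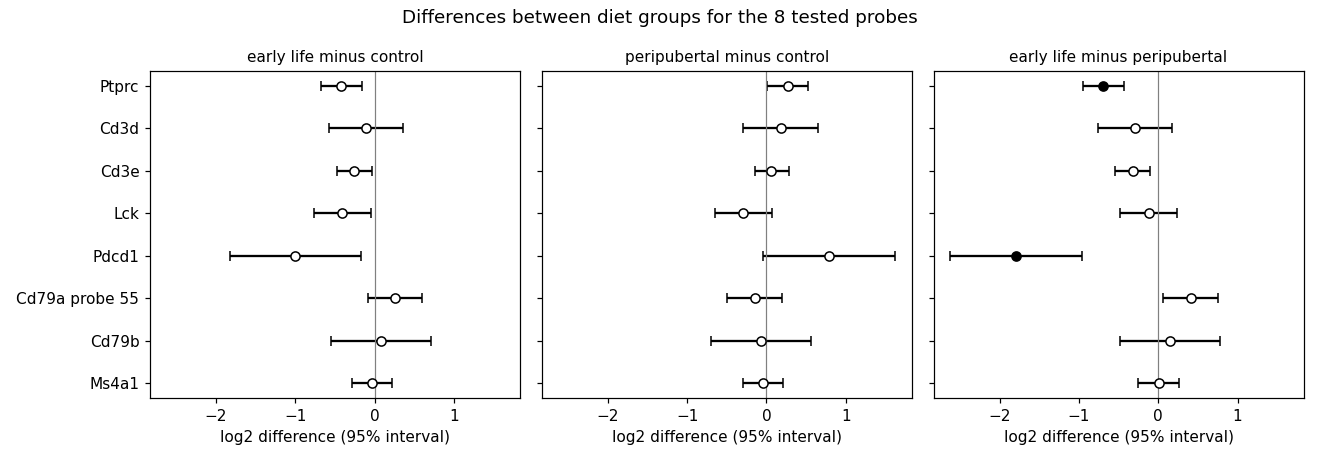
Log2 differences of the 8 tested member probes in the 3 comparisons, with 95% intervals; filled circles passed an adjusted p of 0.05. Only Ptprc (-0.69) and Pdcd1 (-1.79) in early life minus peripubertal are filled.

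Among the CD3 chains, Cd3e was the most even within groups. It measured 9.76, 9.52, 9.58 and 9.65 in C1 to C4, 9.45, 9.35, 9.25 and 9.43 in E1 to E4, and 9.77, 9.68, 9.61 and 9.69 in P1 to P4. Every early-life sample was under every control and every peripubertal sample. The differences were small, -0.26 ± 0.097 against control (SE; limma, adjusted p = 0.32) and -0.32 ± 0.097 against peripubertal (SE; limma, adjusted p = 0.101), and neither passed the test. Peripubertal and control samples overlapped, with a difference of 0.06 and a 95% interval of -0.15 to 0.28.

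Cd3d, which encodes the delta chain, measured 7.83, 7.18, 7.27 and 7.17 in C1 to C4, 7.40, 6.95, 7.36 and 7.30 in E1 to E4, and 7.42, 7.89, 7.44 and 7.44 in P1 to P4. C1 and P2 stood above the other samples of their groups. The early-life samples were all under the peripubertal ones, the closest being 7.40 in E1 and 7.42 in P1, and the difference of -0.29 ± 0.21 did not pass (SE; limma, adjusted p = 0.436).

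Cd3g, which encodes the gamma chain, had no fitted difference because it was near background. Its values were 6.71 to 7.04 in control, 6.42 to 6.81 in early-life and 6.77 to 7.0 in peripubertal ovaries, ranges that overlap. The only value well above background was C3, at 7.04.

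Lck, the kinase that starts T cell receptor signalling, was highest in control ovaries. It measured 9.69, 9.81, 9.98 and 10.29 in C1 to C4, 9.41, 9.69, 9.49 and 9.52 in E1 to E4, and 9.90, 9.77, 9.27 and 9.67 in P1 to P4. E2 and C1 met at 9.69, and the peripubertal samples spread across both groups. The differences were -0.41 ± 0.16 for early life minus control (SE; limma, adjusted p = 0.336), -0.29 ± 0.16 for peripubertal minus control (SE; limma, adjusted p = 0.531) and -0.12 ± 0.16 for early life minus peripubertal (SE; limma, adjusted p = 0.686).

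Of the B cell receptor genes, Cd79a had its highest mean in early-life ovaries on both of its probes. Probe A_55_P2137496 measured 8.21, 8.46, 8.09 and 8.24 in C1 to C4, 8.50, 8.20, 8.63 and 8.69 in E1 to E4, and 7.86, 8.29, 8.15 and 8.08 in P1 to P4. E2 lay among the samples of the other groups, so the groups overlapped. The difference was 0.41 ± 0.16 against peripubertal (SE; limma, adjusted p = 0.16) and 0.26 ± 0.16 against control (SE; limma, adjusted p = 0.481). Without E2 the first became 0.53 (limma, adjusted p = 0.0374), the only setting of those tried in which it passed.

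The second Cd79a probe, A_66_P120987, was near background and not tested. It measured 6.47 to 6.75 in control, 6.71 to 7.12 in early-life and 6.50 to 6.85 in peripubertal ovaries. Only E1 (7.08) and E2 (7.12) were well above background. The probes disagree on E2, which was the lowest early-life sample on the first probe and the highest on the second.

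Cd79b, the partner of Cd79a, did not pass in any comparison. It measured 8.14, 7.71, 7.87 and 8.02 in C1 to C4, 8.29, 7.19, 8.12 and 8.47 in E1 to E4, and 7.84, 7.88, 7.89 and 7.86 in P1 to P4. E2 was the lowest of all samples and E4 the highest, and the peripubertal samples were nearly equal. The early-life difference from control was 0.08 with a 95% interval of -0.55 to 0.71 (limma, adjusted p = 0.911), so changes of that size are not distinguished from 0.

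Ms4a1, the gene for CD20, ran from 6.98 to 7.41 in control, 7.01 to 7.31 in early-life and 7.12 to 7.19 in peripubertal ovaries. The groups overlapped, and the differences were -0.04 against control (95% interval -0.29 to 0.22) and 0.01 against peripubertal (95% interval -0.25 to 0.26). The limma adjusted p was 0.896 and 0.982. The values were low, and C3, at 7.07, was not well above background. The width of the intervals depends on the processing: the SE of early life minus control was 0.11 here and 0.24 with the scanner's processed signal.

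Members were also set against each other within single samples, which leaves out what a sample shares. The difference Pdcd1 minus Cd3e ran from -0.92 to 0.32 in early-life, 0.01 to 1.21 in control and 0.77 to 1.52 in peripubertal ovaries, so the Pdcd1 probe moved further than the Cd3e probe. Cd79a probe A_55_P2137496 minus Cd3e ran from -1.15 to -0.62 in early-life, -1.55 to -1.07 in control and -1.91 to -1.39 in peripubertal ovaries, with control overlapping both other groups. These differences between probes were not tested. Across the 12 samples Pdcd1 correlated at 0.78 with both Ptprc and Cd3e, but at 0.20 and 0.16 once the means of group and dye were removed. Cd79a (A_55_P2137496) and Cd79b correlated at 0.51, and at 0.67 after that removal. These correlations describe 12 samples that share arrays in pairs.

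Genes outside the set were ranked by the likeness of their values to each member, as Pearson r over the 12 samples among 16190 probes well above background in all of them. Nearest to Ptprc were C1qb (0.984) and C1qa (0.983), which encode chains of complement C1q made by macrophages, then Vsir (0.97). Nearest to Cd3e were Gbp3 (0.965), Irf9 (0.96) and Serpinb9 (0.95). Gbp3 is an interferon-induced GTPase and Irf9 a transcription factor of the interferon response.

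Nearest to Pdcd1 were Sh3bgr (0.948) and Gulp1 (0.943), the latter an adaptor of phagocytosis. The highest r was 0.867 for Cd3d (Csf1) and 0.967 for Cd79b (B4galnt1). For Lck and for Cd79a probe A_55_P2137496 it belonged to probes without a gene name (0.911 and 0.903), and the nearest named genes were Olfm1 (0.895) and Gsta4 (0.894). These values of r are the highest of a search over many probes in 12 samples, and they are given as a description.

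**Figure D3:**
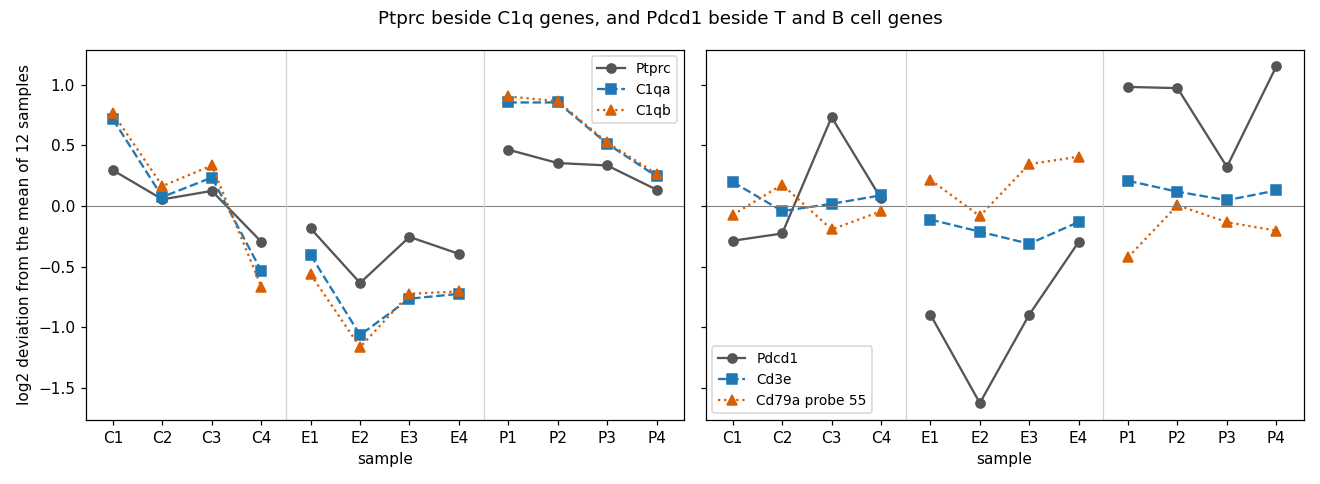
Log2 deviation from the mean of 12 samples for Ptprc with C1qa and C1qb (left) and for Pdcd1 with Cd3e and Cd79a probe A_55_P2137496 (right), sample by sample in the 3 groups. Ptprc has the shape of the C1q genes with a smaller amplitude, and Pdcd1 moves further than Cd3e.

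Most macrophage markers lay in the same direction as Ptprc in early life minus peripubertal, with 9 of 10 below 0 and Cd14, a receptor for bacterial lipopolysaccharide, at 0.77 ± 0.59 (SE; limma, adjusted p = 0.458). Of the 10 markers, all tested, 5 were lower in early-life than in peripubertal ovaries and 0 higher, where 1.65% of all probes were called lower. C1qa differed by -1.36 ± 0.24 (SE; limma, adjusted p = 0.034), the macrophage surface protein Adgre1 by -1.19 ± 0.21 (SE; adjusted p = 0.034) and C1qb by -1.43 ± 0.27 (SE; adjusted p = 0.0373). Mrc1, the mannose receptor, and Fcgr1, an antibody receptor, were the other 2. Fcgr1 was well above background in only 7 of 12 samples. Its early-life values were low, at 6.72, 6.74, 6.79 and 6.94, so the size of its difference is uncertain. The marker list averaged 9.72 to 10.31 in early-life, 10.01 to 10.84 in control and 10.72 to 11.15 in peripubertal samples. Cd68 was missing in C2, C3, C4, P3 and P4, so the averages of those samples leave it out. The median differences of the list were -1.12, -0.65 and 0.46 in early life minus peripubertal, early life minus control and peripubertal minus control. In the last 2 comparisons 0 markers passed, where 0.0413% and 0.273% of all probes were called. In early life minus control 3 of 10 were above 0: Cd14 (0.64), the integrin chain Itgam (0.07) and Cd68 (0.06). The control level of Cd68 rests on C1 alone.

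Of 15 genes expressed by white blood cells at large, 12 were tested and 0 passed in any comparison. Of all probes tested, 1.65% were called lower in early life minus peripubertal, so a count of 0 among so few genes says little about them. The median of these 12 genes was -0.55 in early life minus peripubertal (-0.03 for all probes), with 11 of 12 differences below 0. It was -0.39 in early life minus control (-0.023 for all probes), with 12 of 12 below 0. Laptm5, a lysosomal protein of blood cells, differed by -0.89 ± 0.24 (SE; limma, adjusted p = 0.0743) and the glycoprotein Cd52 by -1.64 ± 0.46 (SE; adjusted p = 0.0856) in early life minus peripubertal. The part of macrophages or of other white blood cells in the Ptprc and Pdcd1 differences was not tested.

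Of 24 other T cell genes listed, 16 were tested. In early life minus peripubertal 1 was lower (1.65% of all probes) and 0 higher, 11 of 16 differences were below 0, and the median was -0.06. That gene was Ets1, a transcription factor of lymphocytes and of blood vessels, at -0.57 ± 0.12 (SE; limma, adjusted p = 0.0432). Cd28, the co-stimulatory receptor whose signal PD-1 opposes, differed by -1.59 ± 0.39 (SE; adjusted p = 0.0625), and Thy1 by -0.93 ± 0.25 (SE; adjusted p = 0.0794).

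Cd28 measured 7.10, 7.08, 7.10 and 7.10 in E1 to E4 and 8.33, 7.83, 9.35 and 9.22 in P1 to P4. The early-life samples were nearly equal and all under the peripubertal ones. C1 (7.22) and C2 (7.09) were near the early-life values, while C3 (8.48) and C4 (8.23) were among the peripubertal ones. The control values thus split by array, since C1 shared an array with C2, and C3 with C4. The peripubertal values split by array too, with P1 and P2 under P3 and P4. The Cd28 probe was well above background in 11 of 12 samples. Its early-life values were low, as were those of C1 and C2, so the size of its difference is uncertain. Zap70, the kinase that follows Lck in the pathway, differed by 0.01 (adjusted p = 0.99) and Cd4 by -0.05 (adjusted p = 0.923). The Cd4 value of C4 was missing and left out of the fit.

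Of the ligands of PD-1, Cd274 was detected in 12 of 12 samples and Pdcd1lg2 in 0 of 12. Cd274 measured 7.14 to 7.69 in control, 7.28 to 7.59 in early-life and 7.39 to 7.49 in peripubertal ovaries, and the groups overlapped (early life minus peripubertal -0.06, limma adjusted p = 0.82). Of 13 listed checkpoint genes 6 were tested, of which 1 was lower (1.65% of all probes) and 0 higher in early life minus peripubertal. It was Cd86, a ligand of CD28 on antigen-presenting cells, at -0.81 ± 0.17 (SE; limma, adjusted p = 0.0429). Cd86 was well above background in 11 of 12 samples. Its early-life values were low, at 7.16, 6.95, 7.04 and 7.02, so the size of its difference is uncertain. Ptpn11, the phosphatase SHP-2 that PD-1 recruits, differed by -0.28 ± 0.07 (SE; adjusted p = 0.0663). The inhibitory receptors Ctla4 and Tigit were detected in 0 of 12 samples.

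Of 18 other B cell genes on the array 11 were tested. In early life minus peripubertal, 1 was lower (1.65% of all probes) and 0 higher, with a median of -0.04. That gene was Cd72, an inhibitory receptor of B cells and some macrophages. It measured 7.72, 7.25, 7.47 and 7.92 in E1 to E4 and 9.08, 9.06, 8.68 and 8.66 in P1 to P4, well apart, with a difference of -1.28 ± 0.20 (SE; limma, adjusted p = 0.0284). Cd37 differed by -0.30 ± 0.10 (SE; adjusted p = 0.133). Cd22, another inhibitory receptor of B cells, differed by 0.00 (adjusted p = 0.994).

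Vpreb3, a gene of developing B cells, ran the other way, at 2.22 ± 0.82 (SE; limma, adjusted p = 0.152). It measured 11.56, 9.63, 11.65 and 12.36 in E1 to E4 and 8.34, 9.58, 9.0 and 9.39 in P1 to P4. Early-life samples were above peripubertal ones, with E2 the lowest and E4 the highest of its group. Wfdc2, an oviduct epithelium marker, was also lowest in E2 (11.08) and highest in E4 (14.68) within the early-life group. Ovgp1, another oviduct marker, was lowest in E2 (11.59) but highest in E1 (17.83). The part of oviduct tissue in the Vpreb3 difference was not tested.

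In early life minus control and in peripubertal minus control, 0 genes of the T cell, checkpoint and B cell lists passed. Of all probes tested, 0.0413% and 0.273% passed. The smallest limma adjusted p of these lists in these comparisons was 0.112, for Btk, a kinase of B cells and myeloid cells. Btk differed by -0.70 ± 0.13 in early life minus control (SE; limma). Cd72 stood at 0.77 ± 0.20 in peripubertal minus control (SE; limma, adjusted p = 0.211).

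**Figure D4:**
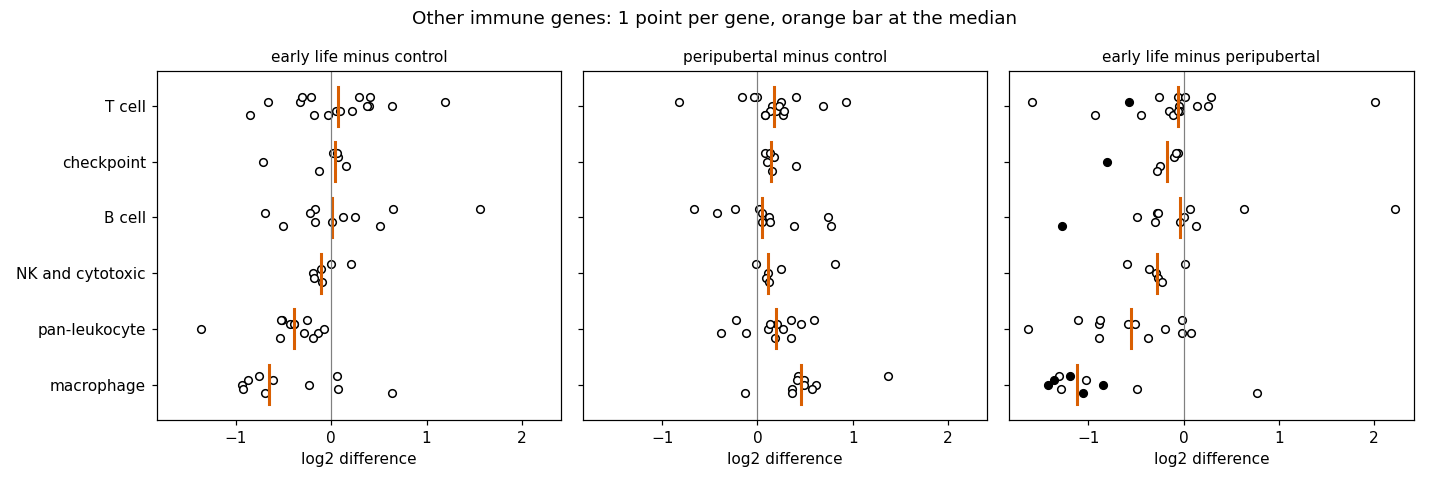
Log2 differences of the other immune genes, 1 open point per tested gene and filled where the adjusted p was under 0.05, with an orange bar at each list's median, in the 3 comparisons. The macrophage list has 5 filled genes in early life minus peripubertal, and the T cell, checkpoint and B cell lists have 1 each.

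Markers of tissue around the ovary also varied between the groups. The 5 tested fat cell markers averaged 11.19 to 13.67 in early-life, 8.72 to 10.7 in control and 9.44 to 12.14 in peripubertal samples. The 6 oviduct epithelium markers averaged 9.74 to 13.43, 8.58 to 11.26 and 8.01 to 9.24 in the same order, and the 5 red blood cell markers 11.46 to 13.45, 10.27 to 12.75 and 10.52 to 12.4. None of these markers passed the test in any comparison. Of all 24191 probes tested, 10, 66 and 514 were called in early life minus control, peripubertal minus control and early life minus peripubertal. The part of these markers in the member differences was not tested. The 10 ovarian markers, all tested, averaged 13.28 to 13.94, 13.06 to 14.1 and 13.35 to 14.16. Missing values were left out of all these averages, so samples were not always averaged over the same markers. For example, Ovgp1 was missing in C1 and C2, Epcam in C1, and Hbb-b1 in C1, C2, E3, P1 and P2. The ranges therefore depend in part on which values were missing.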

How the data were processed

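Per the labels' protocols, ovaries were minced, and total RNA was extracted, amplified and labelled with Cy3 or Cy5. The 6 arrays were scanned into Agilent Feature Extraction (version 11.0.1.1) with probes placed on mm9, per the file headers. The deposited scanner files give the mean spot signal and local background as intensity, not normalized, and a processed intensity. The deposited value table holds log2 values centred near 0, made by steps not given in the sources used here. Of the 12 columns of values, 8 were used as an alternative; the 4 peripubertal columns matched no scanner channel and were left out.

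Lines broken in the files (1 to 3 per file) were left out. With R 4.3.3 and limma 3.58.1 (and with statmod 1.5.0 and version 1.17.8 of data.table), intensities were background-corrected (normexp, offset 50), normalized (loess within each array, then Aquantile across arrays) and taken as separate log2 channels. Outlier-flagged spots were left out (3.47% of values missing), and spots of a probe were averaged. The 24191 probes that 4 or more of the 12 samples showed well above background were fitted in 1 model with dye as covariate and array as random block (correlation 0.295), with the Benjamini-Hochberg adjusted p under 0.05 as the threshold. The scripts were tested on simulated data. Probes were named through RefSeq accession, symbol or synonym.

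The members, the lists, the tests and the other settings were chosen with earlier results of these data known. Each list is given by its counts and median over its brightest probes. Besides the members and Cd274, Pdcd1lg2, Cd4, Cd8a and Cd247, the rule names up to 3 genes of each list with the smallest p in a comparison and the 3 genes most like each member; some items that the rule names are not reported here. Cd8b1, Pax5, Blk, Ctla4, Tigit, Zap70, Cd22, Mrc1, Fcgr1 and Cd14 were named after their values were seen. Samples with the same number correlated, after group means were removed, at 0.08 to 0.52 between control and early life and at -0.35 to 0.08 between peripubertal and the other groups. Not every pair was over 0.1, so the numbers were not taken as pairs.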

Additional observations from a re-analysis of the deposited data

Results flagged for a closer look

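Of 30 groups of 4 member values, 2 held a sample far from the other 3, where chance gives about 1 in 20. Both were of Cd3d, on the probe that spans an intron. In the control group C1 stood at 7.83, above the other samples at 7.17 to 7.27. In the peripubertal group P2 stood at 7.89, above the other samples at 7.42 to 7.44. Without C1, the early life minus control difference of Cd3d went from -0.11 to 0.04 and that of peripubertal minus control from 0.18 to 0.33. Without P2, early life minus peripubertal went from -0.29 to -0.13 and peripubertal minus control from 0.18 to 0.02. None of these passed the test, with or without these samples.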

How the results depend on the processing

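The members' calls rest on few samples and on the names of the arrays. Over 20 settings, Ptprc was called in early life minus peripubertal in 14 (adjusted p 0.00839 to 0.107, difference -0.96 to -0.63), Pdcd1 in 11 (adjusted p 0.0122 to 0.13, difference -2.06 to -1.54) and Cd3e in 1, without the array block (adjusted p = 0.0311). Leaving out each sample in turn gave 0 to 3 member probes called in that comparison, and 0 in the other two. Without E1 the count over all probes was 2, and without E2 it was 1804. Over all samples left out, the probes called numbered 0 to 50 in early life minus control, 5 to 40 in peripubertal minus control and 2 to 1804 in early life minus peripubertal, against 10, 66 and 514 with all samples. Small differences changed sign in this range: Cd3d (-0.19 to 0.04), Cd79b (-0.11 to 0.36) and Ms4a1 (-0.09 to 0.03) in early life minus control, Cd79b (-0.14 to 0.01) and Ms4a1 (-0.10 to 0.02) in peripubertal minus control, and Cd79b (-0.04 to 0.43) and Ms4a1 (-0.02 to 0.05) in early life minus peripubertal. Probes called in early life minus control were 5 without the filter on dim probes, 24 with the processed signal, 140 without the array block, 3 with outlier spots kept, 0 with only the control and early-life samples (2 fewer arrays, on the shared slide) and 17 in the deposited value table. In peripubertal minus control they were 255 without the array block and 34 with outlier spots kept, and in early life minus peripubertal 267 with the processed signal and 2599 without the array block. Without the filter, member probes called in the last comparison were 1, Pdcd1 being at adjusted p = 0.0602. The processed signal turned Ms4a1 to 0.10 and 0.03 and Cd79b to 0.04, in early life minus control, peripubertal minus control and peripubertal minus control; without background correction Ms4a1 turned to -0.02 in early life minus peripubertal. With a replicate block, 0 and 17 probes were called in early life minus control and peripubertal minus control, and the block changed no member's call. The cause of these shifts was not tested.

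In the deposited value table, whose names are exchanged, early life minus control was 0.45 for Ptprc, 0.11 for Cd3d, 0.24 for Cd3e, 0.42 for Lck, 1.09 for Pdcd1, -0.39 for Cd79a (A_55_P2137496), -0.16 for Cd79b and 0.03 for Ms4a1. When these 2 groups of arrays were exchanged in the scanner files, an alternative chosen after seeing the data, these were 0.42, 0.11, 0.26, 0.41, 1.00, -0.26, -0.08 and 0.04. Peripubertal minus control then called 514 probes and 2 members, Ptprc (0.69) and Pdcd1 (1.79), with Lck at 0.12. Early life minus peripubertal then called 66 probes and 0 members, with Lck at 0.29. Detection by the scanner's weaker call of a positive and significant signal was met by 116 of 120 member values, against 98 well above background.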

Other observations

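Of 12 genes of natural killer and cytotoxic cells 6 were tested and 0 passed in any comparison. Of all probes tested, 1.65% were called lower in early life minus peripubertal, so a count of 0 among so few genes says little about them. The medians of the 6 genes were -0.28 in early life minus peripubertal, -0.11 in early life minus control and 0.11 in peripubertal minus control. Nkg7, a protein of cytotoxic granules, measured 9.74 to 9.88 in early-life and 10.05 to 10.13 in peripubertal samples, which did not overlap (difference -0.27 ± 0.07, SE; limma, adjusted p = 0.0671). Prf1, the pore-forming protein perforin, and the chemokine Ccl5 did not overlap between these groups either, with differences of -0.23 ± 0.08 (SE; adjusted p = 0.157) and -0.60 ± 0.24 (SE; adjusted p = 0.179). Of all probes tested, 13.8% were apart in this direction. Ccl5 also lay above control in all peripubertal samples, by 0.81 ± 0.24 (SE; limma, adjusted p = 0.25). In that comparison 11.8% of all probes were apart in either direction. The natural killer receptor Ncr1, named after its values were seen, was detected in 0 of 12 samples.

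Genes of lymphoid tissue were partly detected. The chemokine Ccl19, which guides T cells in lymph nodes, was well above background in 12 of 12 samples and differed by -0.41 ± 0.12 in early life minus peripubertal (SE; limma, adjusted p = 0.0998). The vascular addressin Madcam1 was also detected in 12 of 12 and differed by -0.30 ± 0.07 (SE; limma, adjusted p = 0.0637). Cxcl13, the chemokine of B cell follicles, was detected in 0 of 12. Of 7 granulocyte markers 5 were tested and 0 passed in any comparison. With 1.65% of all probes called lower in early life minus peripubertal, this count says little about so few genes.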
